A study of Rattus norvegicus with 4 samples.

Results

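The enzymes described here modify and conjugate foreign compounds and their endogenous counterparts, and they belong to the cytochrome P450 (Cyp), glutathione S-transferase (Gst), UDP-glucuronosyltransferase (Ugt), sulfotransferase (Sult), aldo-keto reductase (Akr), aldehyde dehydrogenase (Aldh) and carbonyl reductase (Cbr) families. Members were taken by gene symbol from the 16581 named rat genes on the array. Of 160 symbols in these families, 7 were left aside (the targets of the aryl hydrocarbon receptor Cyp1a1, Cyp1a2, Cyp1b1, Aldh3a1 and Ugt1a6, and the sterol enzymes Cyp27a1 and Cyp51), which left 153 members with 201 probes. Expression was measured in NR8383, a macrophage line from the lung lavage of a normal rat, after 4 h with Printex90, a carbon black, at a dose of 0.9 cm2/cm2. The cells had undergone 20 passages, and the labels carry the abbreviation ALI. The group held 4 biological replicates, each on 1 array of the same slide, and the untreated cells of the study design were not analysed here, which leaves levels in exposed cells and no comparison with unexposed ones.

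Enzymes of this kind work in sequence. Cytochromes P450, reductases and dehydrogenases first add, expose or oxidise a polar group, and transferases then attach glutathione, glucuronic acid or sulfate so that the product can be exported. The liver is the main site, the airway epithelium carries its own set, and reductases and aldehyde dehydrogenases also clear the aldehydes formed when membrane lipids are oxidised. Many members also act on hormones, vitamins, fatty acids or amino acids.

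A level is the log2 intensity of a gene's probe minus the 75th percentile of its array, so that 0 lies at that percentile. A gene was called detected on an array when at least one of its probes was well above background by the flag of the scanner software. Because probes differ in how brightly they bind, the level of one gene is not set against that of another. RNA was taken from whole cultures, so that a signal in few cells and a weak signal in many cells cannot be told apart. Replicate 4 stood apart in the number of detections, with 63 members and 9985 named genes against 49 to 53 members and 8917 to 9241 named genes on the other arrays.

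The labelled cell type was borne out by its markers. All 10 macrophage genes examined were detected on all 4 arrays, among them Cd68 at 7.56 ± 0.21 and Lyz2, lysozyme, at 9.45 ± 0.043 (SD, n = 4 for both). Of 10 hepatocyte genes 0 were detected on every array. Alb, Apoa1 and Ttr were on no array, and Tf, transferrin, was on 3. Of 5 club cell genes 1 was detected on all arrays, Scgb3a1 at -1.76 ± 0.26, while the defining gene Scgb1a1 was on none, and no gene of steroid-producing cells (0 of 6) was detected on any array. Of 6 genes of alveolar type II cells 1 was detected on all arrays, Napsa at 5.68 ± 0.19 (SD, n = 4), and the surfactant gene Sftpc was on none.

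In the exposed cells 45 of the 153 members (29.4%) were detected on all 4 arrays, against 50.8% of all named genes. A further 22 members were detected on some arrays and 86 on none. With a less strict flag of the same software 69 members passed (45.1%), against 61.7% of named genes. Among those it added, Akr1c3, Cyp11b3, Cyp26a1, Cyp2c11, Cyp2c13, Cyp2c22, Cyp4a1, Cyp4f17, Cyp4f5, Gsta5, Sult2b1 and Ugt1a9 were on no array by the stricter flag, which is the one used below unless stated. The share detected on all arrays varied between families. It was 66.7% of 3 Cbr members, 64.7% of 17 Aldh members and 50% of 18 Akr members, while 33.3% of 24 Gst, 18.5% of 65 Cyp, 15.4% of 13 Sult and 7.69% of 13 Ugt members were detected on all arrays. The shares are descriptions of these arrays, and members of a family share sequence and are not independent of each other.

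**Figure D1:**
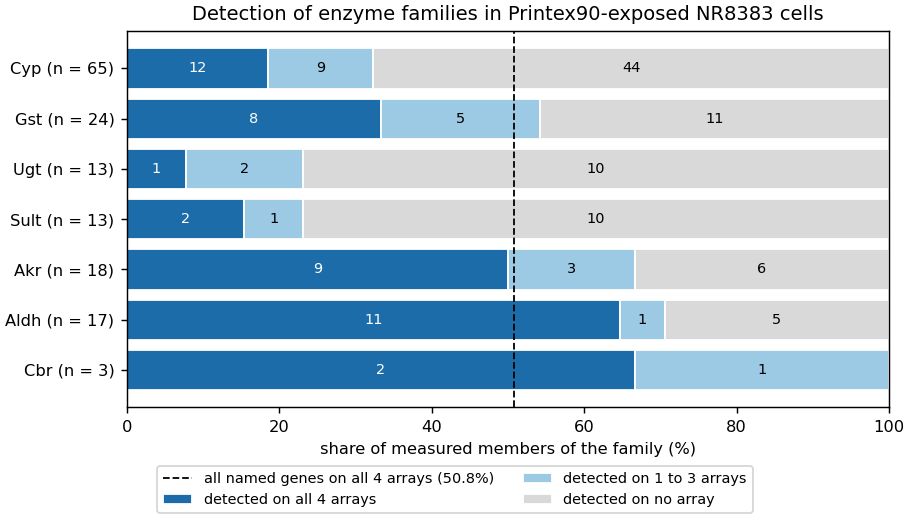
Share of the measured members of each enzyme family (x axis, percent) that were detected on all 4 arrays, on 1 to 3 arrays or on no array, with the number of genes printed in each bar and the share of all named genes detected on all 4 arrays as a dashed line. The Aldh and Cbr bars pass the line at 50.8%, the Akr bar ends just short of it, and the Cyp, Ugt and Sult bars end at 18.5% or less.

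Aldehyde dehydrogenases, which oxidise aldehydes to carboxylic acids, were represented by 11 detected genes of 17. Aldh2, the mitochondrial enzyme that clears acetaldehyde and lipid aldehydes, read 8.28, 8.26, 8.52 and 8.20 on replicates 1 to 4. Its mean was 8.32 ± 0.14 (SD, n = 4), and its second probe, also detected on every array, had a mean of 5.67. Aldh3a2, the fatty aldehyde dehydrogenase of the endoplasmic reticulum, read 5.31, 5.07, 5.16 and 5.31, with a mean of 5.21 ± 0.12 (SD, n = 4). Both genes thus lay far above the percentile on every array and varied little between them. Aldh9a1, which acts on aminoaldehydes, read 5.03, 5.14, 5.05 and 4.80, averaging 5.0 ± 0.15 (SD, n = 4), and its 2 probes gave nearly the same level (5.0 and 4.99). Aldh16a1, a member whose mammalian form is thought to lack catalytic activity, read 7.02, 6.86, 7.08 and 6.73, averaging 6.92 ± 0.16 (SD, n = 4). By these values both genes were lowest on replicate 4, and the arrays otherwise lay close together. The second probe of Aldh9a1 was instead highest on replicate 4, at 5.21, so that order depends on the probe.

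A group of 7 members serves amino acid and folate metabolism in mitochondria or cytosol, and 6 of them were detected on all arrays (85.7%, against 50.8% of all named genes). Aldh4a1, which completes proline breakdown, read 6.18, 6.06, 6.28 and 5.84, a mean of 6.09 ± 0.19 (SD, n = 4). Its second probe was also detected on every array but at a mean of -0.68, so the level of this gene depends on the probe. Aldh18a1, which makes the precursor of proline, read 3.06, 2.98, 3.40 and 3.38, a mean of 3.20 ± 0.22 (SD, n = 4), against -0.031 for its other probe. The synthetic and the degrading enzyme of proline were therefore both measured well above background. Aldh7a1, of lysine breakdown, read 3.56, 3.78, 3.96 and 3.73 (3.76 ± 0.17, SD, n = 4). Aldh6a1, of valine breakdown, read 0.79, 0.41, 0.20 and 0.53 (0.48 ± 0.25, SD, n = 4), highest on replicate 1 and lowest on replicate 3. The folate enzymes come as a pair in the cytosol and in mitochondria, and both were detected. Aldh1l1 read 0.57, 0.76, 0.37 and 0.92 (0.65 ± 0.24, SD, n = 4) and Aldh1l2 read 0.70, 0.71, 0.99 and 1.05 (0.86 ± 0.18, SD, n = 4). The only spot of Aldh1l2 lies in a region of replicate 4 that was brighter than on the other arrays, and the gene read 0.99 on replicate 3, outside any such region. Aldh5a1, which oxidises succinic semialdehyde, was detected on replicate 4 alone.

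Aldh3b1, an enzyme of membrane lipid aldehydes, read 0.36, 0.68, 0.81 and 0.15 (0.50 ± 0.30, SD, n = 4), and the arrays fell into a lower and a higher pair with replicates 1 and 4 below 2 and 3. The genes that make retinoic acid gave no call. Aldh1a1, Aldh1a2 and Aldh1a3, the retinaldehyde dehydrogenases, were well above background on no array, nor were Aldh8a1 and the mitochondrial Aldh1b1. The retinoic acid hydroxylases Cyp26a1 and Cyp26b1 were not detected either, so that 0 of 6 measured members of retinoid turnover were detected on any array. Of these 6 members Cyp26a1 passed the less strict flag on all arrays. For comparison, 50.8% of all named genes were detected on all 4 arrays by the stricter flag.

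Aldo-keto reductases reduce aldehydes and ketones with NADPH, and 9 of 18 were detected on all arrays. Akr1a1, the general aldehyde reductase, read 6.57, 6.45, 6.81 and 6.40 on replicates 1 to 4, a mean of 6.56 ± 0.18 (SD, n = 4). Akr1b8, a rodent relative of aldose reductase that reduces lipid aldehydes, read 8.07, 8.18, 8.30 and 8.16, a mean of 8.18 ± 0.097 (SD, n = 4), and so stayed within 1.18-fold over the arrays. Akr7a2, an aflatoxin aldehyde reductase, read 3.24, 3.29, 2.92 and 3.04 (3.12 ± 0.17, SD, n = 4), with replicates 1 and 2 above 3 and 4. Its relative Akr7a3, which is known in rat liver for its induction by antioxidants, was detected on 3 arrays. It read -1.92, -1.80, -3.01 and -2.0, and replicate 3 was the low one.

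Within the aldose reductase subfamily, Akr1b1 itself, the first enzyme of the polyol pathway, read 1.41, 1.58, 1.65 and 1.60 (1.56 ± 0.11, SD, n = 4), and its 2 probes had means of 1.56 and 1.45. Akr1b10 had a mean of -1.16 ± 0.21 (SD, n = 4), and Akr1b7 was detected on no array. The Akr1c subfamily holds hydroxysteroid dehydrogenases, and 3 of 9 were detected on all arrays. Akr1c12 read 2.37, 2.16, 2.03 and 1.98 (2.13 ± 0.17, SD, n = 4), Akr1c13 had a mean of -0.17 ± 0.089 and Akr1e2 one of -0.70 ± 0.21 (SD, n = 4 for both). Akr1c12l1 read -1.41, -2.0, -1.39 and -1.23 (-1.51 ± 0.34, SD, n = 4), with replicate 2 below the others. Akr1c14, the hydroxysteroid dehydrogenase best known from rat liver, was detected on no array, and neither were Akr1c1, Akr1c2, Akr1c3 and Akr1c15. Akr1c19 was detected on replicate 2 and Akr1d1, of bile acid synthesis, on replicate 4 alone. The call of Akr1d1 came from 1 of its 3 probes, and a spot of the gene lies in a bright region of replicate 4.

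All 3 Cbr members gave a signal on at least one array. Cbr1, the cytosolic carbonyl reductase that acts on quinones and prostaglandins, read 5.83, 5.64, 5.85 and 5.72, a mean of 5.76 ± 0.099 (SD, n = 4), and its second probe had a mean of 4.22. Cbr3, its close relative, read 1.43, 1.49, 1.72 and 1.53, a mean of 1.54 ± 0.13 (SD, n = 4). Neither gene spread over more than 1.23-fold between arrays. Cbr4, a mitochondrial member, was detected on replicate 4 alone. Of 12 members listed for the removal of lipid aldehydes, a list that does not hold Aldh3b1, 9 were detected on all arrays (75%, against 50.8% of all named genes), Akr7a3 was on 3, and Aldh1a1 and Aldh1b1 were on none. The others are named above, apart from Gsta4.

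**Figure D2:**
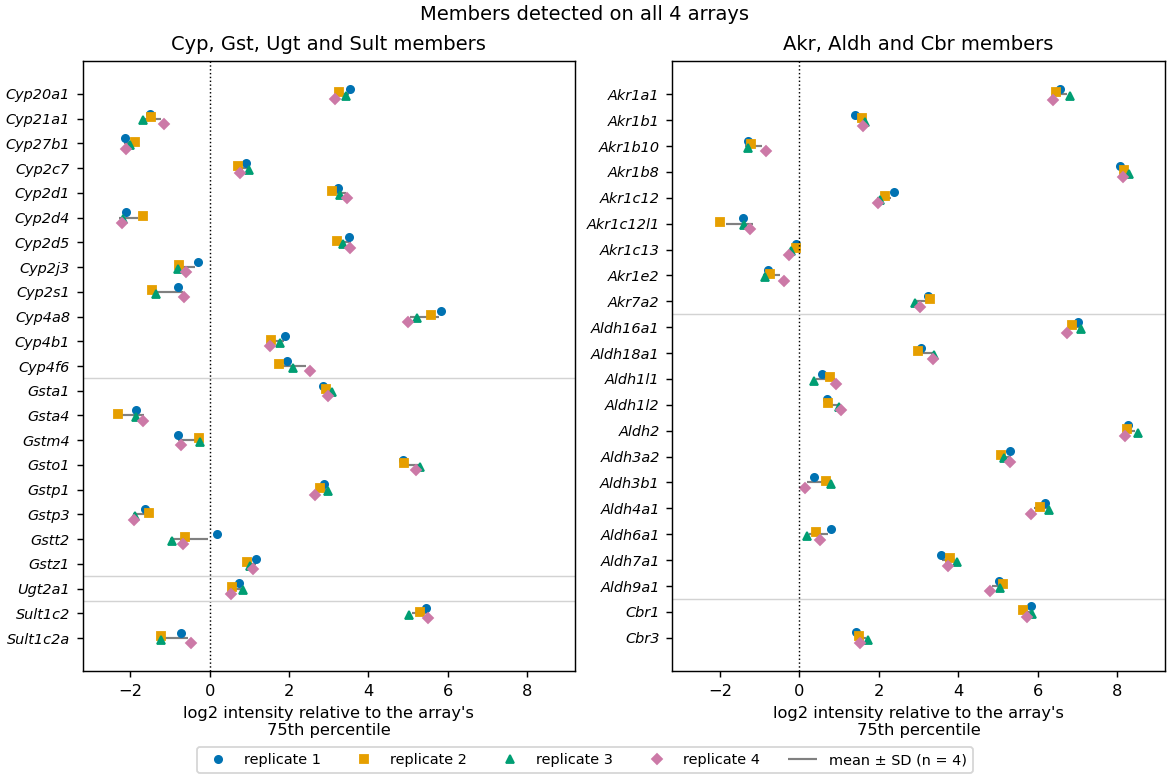
Levels of the 45 members detected on all 4 arrays, as log2 intensity relative to the array's 75th percentile (x axis), with one symbol per replicate and a grey bar for the mean ± SD (n = 4). Most members keep within a narrow band over the arrays, and Gstt2 and Cyp2s1 show the widest spread, with SDs of 0.48 and 0.40.

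Glutathione S-transferases attach glutathione to electrophiles, and 8 of 24 were detected on all arrays. The pi class was complete, with 2 of 2. Gstp1, the main transferase of many extrahepatic cells, read 2.87, 2.79, 2.98 and 2.65 on replicates 1 to 4, a mean of 2.82 ± 0.14 (SD, n = 4), and its second probe had a mean of 2.45. Gstp3, its close relative, had a mean of -1.73 ± 0.19 (SD, n = 4). Gsto1, of the omega class, which also reduces dehydroascorbate and methylated arsenic, read 4.88, 4.90, 5.29 and 5.20 (5.06 ± 0.21, SD, n = 4), with replicates 1 and 2 below 3 and 4. Its relative Gsto2 was detected on replicate 4 alone. Gstz1, the zeta-class enzyme of tyrosine breakdown, read 1.18, 0.93, 1.02 and 1.09 (1.05 ± 0.10, SD, n = 4).

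In the alpha class 2 of 7 members were detected on all arrays. Gsta1, a major liver form, read 2.85, 2.94, 3.08 and 2.99 (2.97 ± 0.096, SD, n = 4), and both of its probes were detected on every array (2.97 and 2.55). Gsta4, which conjugates the lipid aldehyde hydroxynonenal, read -1.85, -2.32, -1.85 and -1.69 (-1.93 ± 0.27, SD, n = 4), lowest on replicate 2. Gsta2, Gsta3, Gsta5 and Gsta6 were detected on no array and Gsta4l1 on replicate 4 alone. The mu class, 8 genes in a row on chromosome 2, had 1 detected member. This was Gstm4, which read -0.80, -0.26, -0.24 and -0.73 (-0.51 ± 0.30, SD, n = 4), with replicates 2 and 3 above 1 and 4. Gstm6l was detected on 3 arrays and Gstm7 on 1, while Gstm1, Gstm2, Gstm3, Gstm5 and Gstm6 were on none. The only spot of Gstm6l lies in a bright region of replicate 3, an array on which it was detected. Gstm1 is the abundant mu-class enzyme of rat liver. Gstt2, of the theta class, had the largest spread of all detected members. It read 0.18, -0.63, -0.94 and -0.66 (-0.51 ± 0.48, SD, n = 4), and replicate 1 lay above the rest. Only 1 of its 3 probes was detected on every array. Gstt1 and the mitochondrial Gstk1 were detected on no array, and Gstt4 was on replicate 1.

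The promoter of Gstp1 is shown because it holds the letters of an antioxidant response element, TGACNNNGC, which binds NRF2 and related factors. It was searched on both strands of the 250 bases before the start site, and the match lies on the gene's own strand, starting 61 bases before the start site. The window is chr1:210769706-210769955 on the minus strand of GRCr8 (RefSeq), and capitals mark the match.
Gstp1: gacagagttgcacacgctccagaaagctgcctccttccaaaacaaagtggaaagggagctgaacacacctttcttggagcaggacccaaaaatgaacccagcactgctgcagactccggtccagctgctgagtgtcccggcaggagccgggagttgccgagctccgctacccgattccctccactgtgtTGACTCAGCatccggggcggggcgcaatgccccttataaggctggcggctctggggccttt

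Cytochromes P450 are haem enzymes that insert oxygen into their substrates. Of 65 measured members 12 were detected on all arrays (18.5%, against 50.8% of all named genes), 9 on some and 44 on none. Families 2 and 3, which carry most drug metabolism, gave 6 of 35, family 4, whose members hydroxylate fatty acids, 3 of 14, and the remaining families 3 of 16. Many liver forms gave no call. All 5 Cyp3a members and Cyp2e1, the ethanol-inducible form, were detected on no array, and neither were Cyp2b2 and Cyp2c11, of which the second passed the less strict flag on all arrays. Of 9 measured targets of the liver receptors CAR and PXR only Cyp2c7 was detected on all arrays (11.1%, against 50.8% of all named genes). The other 8 were on none. Cyp2f4, which activates naphthalene in club cells, was on no array either.

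The Cyp2d subfamily was the part of family 2 with the most detected genes, 3 of 5. Cyp2d5 read 3.50, 3.20, 3.35 and 3.53 on replicates 1 to 4, a mean of 3.40 ± 0.15 (SD, n = 4). Cyp2d1 read 3.23, 3.07, 3.28 and 3.47, a mean of 3.26 ± 0.16 (SD, n = 4). Both were lowest on replicate 2 and highest on replicate 4. Cyp2d enzymes are close copies of each other and the probe sequences were not used here, so the signals of relatives cannot be told apart with certainty, which holds also for the Gsta, Gstp and Akr1c genes. Cyp2d4, the form known from rat brain, had a mean of -2.04 ± 0.25 (SD, n = 4). Cyp2d2 and Cyp2d3 were detected on no array. The upstream sequences of Cyp2d1 and Cyp2d3, which follow each other on chromosome 7, are shown because they are alike while only the first gene was detected. They aligned with 226 identical bases over 254 aligned positions (89%). The windows are chr7:115793431-115793680 and chr7:115802143-115802392, both on the minus strand of GRCr8 (RefSeq), and capitals mark bases without an identical partner in the other sequence, overhanging ends included.
Cyp2d1: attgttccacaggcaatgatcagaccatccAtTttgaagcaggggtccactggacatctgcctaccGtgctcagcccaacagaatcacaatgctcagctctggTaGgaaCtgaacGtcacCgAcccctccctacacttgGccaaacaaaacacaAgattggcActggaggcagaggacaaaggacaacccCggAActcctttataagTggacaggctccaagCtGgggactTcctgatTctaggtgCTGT
Cyp2d3: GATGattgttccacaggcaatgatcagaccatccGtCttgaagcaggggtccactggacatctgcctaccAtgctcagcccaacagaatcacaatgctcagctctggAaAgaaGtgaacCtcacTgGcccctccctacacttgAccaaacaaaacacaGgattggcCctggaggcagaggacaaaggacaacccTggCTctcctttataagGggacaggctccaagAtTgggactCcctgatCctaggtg

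Among the other members of family 2, Cyp2c7 read 0.92, 0.71, 0.98 and 0.75 (0.84 ± 0.13, SD, n = 4) with the strongest of its 5 probes. Of the rest, 2 probes were detected on every array at -1.65 and -1.75, 1 was on 2 arrays and 1 on none. Cyp2j3, an arachidonic acid epoxygenase, had a mean of -0.61 ± 0.23 (SD, n = 4), and its relative Cyp2j4 was detected on 3 arrays. Cyp2s1, which is known from epithelia, read -0.81, -1.46, -1.34 and -0.64 (-1.06 ± 0.40, SD, n = 4), with replicates 1 and 4 above 2 and 3. Cyp2b15 was detected on 3 arrays, and Cyp2a3, a form of the olfactory mucosa and lung, and Cyp2r1, a vitamin D hydroxylase, were each on replicate 4 alone.

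In family 4, Cyp4a8 read 5.82, 5.58, 5.22 and 5.0 (5.40 ± 0.36, SD, n = 4), a 1.77-fold range in which replicate 1 was highest and replicate 4 lowest. This value comes from 1 probe, and the other 2 probes of the gene were detected on no array (-4.75 and -4.92). Its relatives Cyp4a1 and Cyp4a3, the fatty acid hydroxylases induced by PPARα in liver, were on no array and Cyp4a2 was on replicate 4. Cyp4f6, of the subfamily that inactivates leukotrienes, read 1.96, 1.75, 2.10 and 2.54 (2.09 ± 0.33, SD, n = 4), highest on replicate 4. Its second probe was also detected on every array and read 1.64, 1.66, 1.27 and 1.59, so replicate 4 was not highest by that probe. The other 6 Cyp4f members were on no array. Cyp4b1, a lung enzyme that activates several toxicants, read 1.91, 1.53, 1.77 and 1.52 (1.68 ± 0.19, SD, n = 4), while its second probe was detected on 3 arrays at -2.27. Cyp4v3 was detected on replicate 4 alone.

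Members outside these families make or break down hormones, sterols and vitamins. Cyp20a1, whose substrate is not known, read 3.53, 3.25, 3.44 and 3.17 (3.34 ± 0.17, SD, n = 4). Cyp27b1, which makes active vitamin D, had a mean of -2.04 ± 0.11 (SD, n = 4) by 1 of its 2 probes. Cyp24a1, which degrades that hormone, was on no array. Cyp21a1, the adrenal steroid hydroxylase, had a mean of -1.45 ± 0.21 (SD, n = 4). It was the only 1 of 7 members of steroid synthesis to be detected on all arrays (14.3%, against 50.8% of all named genes). Cyp11b2 was detected on 3 arrays, by 1 of its 2 probes, and Cyp17a1 on 1 array. Cyp11a1, the first step of the pathway, and Cyp19a1, the aromatase, were on none. In bile acid synthesis Cyp7a1, Cyp7b1 and Cyp8b1 were on no array, and Cyp39a1 was on 3.

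Few genes of the remaining conjugating families were detected. Among 13 Ugt members, which attach glucuronic acid, the single gene detected on all arrays was Ugt2a1, a form known from the olfactory epithelium. It read 0.74, 0.56, 0.84 and 0.55, a mean of 0.67 ± 0.14 (SD, n = 4). Ugt2b and Ugt2b35 were detected on replicate 4 alone, and Ugt1a8, Ugt1a9, Ugt2b1 and Ugt8, which makes galactosylceramide, were on no array.

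Sulfotransferases were represented by 2 of 13 genes, both of the Sult1c subfamily. Sult1c2 read 5.44, 5.30, 5.02 and 5.49, a mean of 5.31 ± 0.21 (SD, n = 4), and its 4 probes were all detected on every array, at means of 5.31, 4.74, 4.30 and 3.60. Sult1c2a read -0.72, -1.22, -1.23 and -0.47 (-0.91 ± 0.37, SD, n = 4), with replicates 1 and 4 above 2 and 3. Its 3 probes were detected throughout, but the other 2 did not show that order. On them replicate 1 read -1.26 and -1.31, below replicate 2 at -0.91 and -1.09. A spot of Sult1c2a lies in a bright region of replicate 4. These 2 genes are close relatives, and signal of one on the probes of the other was not tested. Sult1a1, the phenol sulfotransferase, Sult1e1, of oestrogens, and Sult2a1, of hydroxysteroids, were on no array, and Sult2a2 was on replicate 4.

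**Figure D3:**
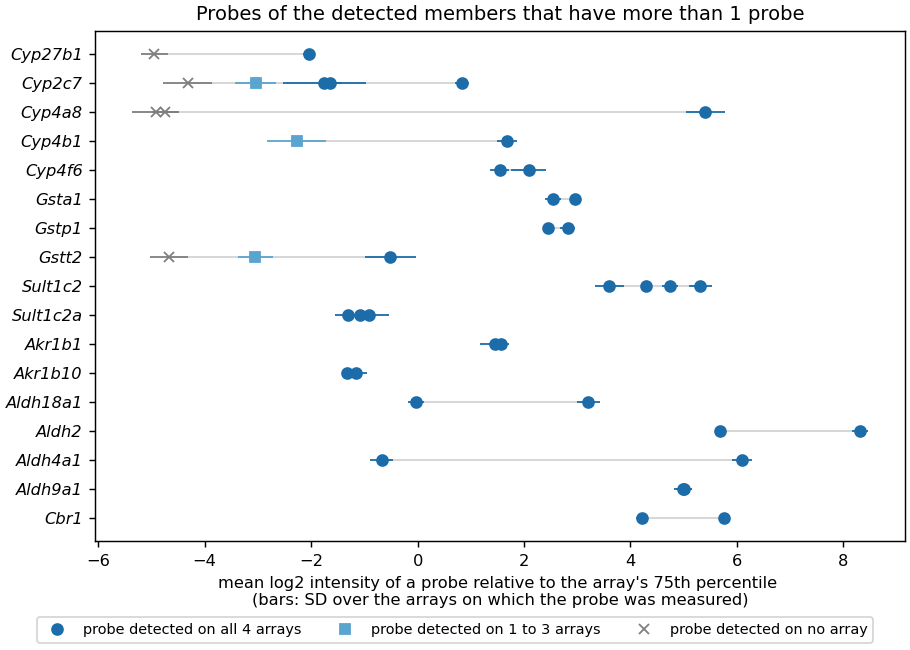
Mean log2 intensity (x axis, relative to the array's 75th percentile, with SD bars over the arrays) of every probe of the 17 detected members that have more than 1 probe, marked by the number of arrays on which the probe was detected. All probes were detected on every array for 12 of the 17 genes, and Cyp27b1, Cyp2c7, Cyp4a8, Cyp4b1 and Gstt2 hold probes that were not.

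The spread between replicates was close to that of detected genes at large. The median SD of the 45 detected members was 0.182, against 0.165 for all 8424 detected genes, and it ranged from 0.089 for Akr1c13 to 0.48 for Gstt2. For 36 of the 45 members the SD was under 0.25. Gstt2 was the 1 member above 0.411, the 95th percentile of the SD over all detected genes. The detected members lay at medians of 0.067, -0.059, 0.051 and -0.013 from their own means on replicates 1 to 4, against 0.032, -0.021, 0.030 and -0.026 for all detected genes. Of the 16 members detected on exactly 1 array, 13 were detected on replicate 4, as were 661 of 1014 named genes of that kind. With 3 of 4 arrays enough, 51 members were detected (33.3%), against 54% of named genes. Leaving out replicates 1, 2, 3 or 4 in turn gave 45, 48, 47 and 46 members, against 51.3%, 51.3%, 52.6% and 51.2% of named genes. With flagged spots kept, 45 members were detected, against 51.3% of named genes, and without the bright regions of the arrays 44, against 48%. When every probe of a gene had to be detected, 40 members passed, against 45% of named genes. The part of the higher count of detections on replicate 4 in these calls was not tested.

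Many members lie in clusters, mostly of related copies, and 7 clusters held 5 or more measured members. Clusters were formed by position alone, so that Aldh18a1 stands in a row with Cyp2c genes on chromosome 1. The share of all named genes detected on all arrays, for comparison, was 50.8%. On chromosome 14 a row of 13 Sult1 and Ugt2 genes held 1 detected on all arrays, Ugt2a1, and 10 detected on none. On chromosome 1, of 12 genes of the Cyp2a, Cyp2b, Cyp2f, Cyp2g, Cyp2s and Cyp2t subfamilies only Cyp2s1, at the edge of the row, was detected on all arrays. The Akr1c cluster on chromosome 17 had 4 detected genes of 10. Akr1e2 lay at its edge, and Akr1c12l1, Akr1c13 and Akr1c12 lay near its middle. Order and neighbours were read from the GRCr8 annotation, where a neighbour was at most the 5th protein-coding gene along.

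**Figure D4:**
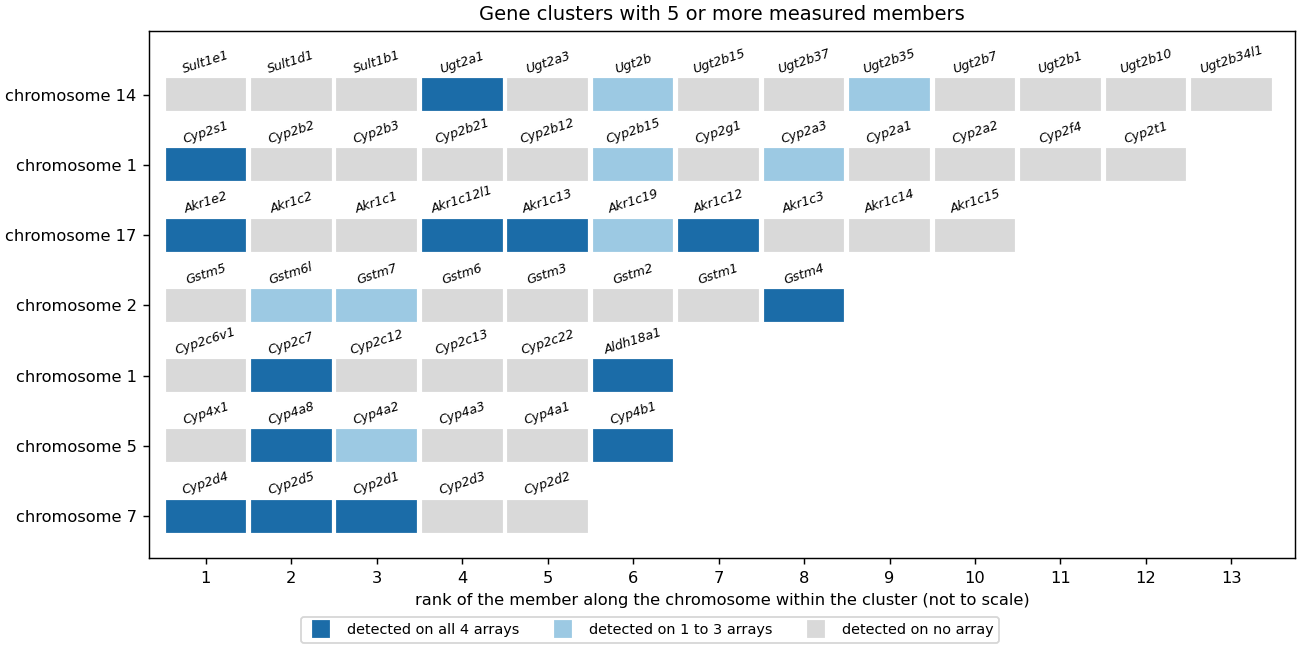
Order of members along the chromosome in the 7 clusters with 5 or more measured members (x axis: rank within the cluster, not to scale), coloured by detection on all 4 arrays, on 1 to 3 arrays or on no array. Genes detected on all 4 arrays stand alone in the Ugt2 and Gstm rows and side by side in the Cyp2d row. In the Akr1c row Akr1e2 stands at the edge and the others lie near the middle.

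The upstream sequences of detected members held more CG dinucleotides, by the median, than those of undetected members. These are dense in the promoters of broadly used genes. The 250 bases before the start site were available for 128 of the 153 members. Members detected on all arrays held a median of 7 CG dinucleotides (39 genes, quartiles 2.5 and 12) and those detected on no array a median of 2 (72 genes, quartiles 1 and 4). Over the named genes the medians were 16 and 4, so the detected members lay below detected genes at large. At least 8 CG dinucleotides were found in 46.2% of detected members and 13.9% of undetected ones, against 80.6% and 36.7% over the named genes. Within families the medians of detected and undetected members were 4 and 2 for Cyp, 9 and 5 for Gst, 11.5 and 9 for Aldh and 3.5 and 3 for Akr. Of the 10 undetected members with 8 or more, Aldh1a2 with 41, Aldh1a3 with 24, Cyp26a1 with 18 and Cyp26b1 with 9 belong to retinoid turnover. The others were Ugt8 with 40, Gstm5 with 19, Gstk1 with 10, Aldh1b1 and Cyp2t1 with 9 each, and Sult2b1 with 8. The remaining retinoid members, Aldh1a1 and Aldh8a1, held 1 and 4. These are descriptions across genes, and genes are not independent replicates.

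Akr7a2, detected on every array, and Cyp2e1, detected on none, are shown as a CG-rich window and one without CG. The windows are chr5:156835339-156835588 and chr1:205269717-205269966, both on the plus strand of GRCr8 (RefSeq). Capitals mark each CG dinucleotide, of which the first holds 23 and the second 0.
Akr7a2: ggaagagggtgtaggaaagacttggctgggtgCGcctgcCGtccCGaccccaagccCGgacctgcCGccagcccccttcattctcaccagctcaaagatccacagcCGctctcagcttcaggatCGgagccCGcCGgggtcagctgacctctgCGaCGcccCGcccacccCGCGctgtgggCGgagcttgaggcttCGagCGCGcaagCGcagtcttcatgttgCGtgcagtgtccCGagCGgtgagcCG
Cyp2e1: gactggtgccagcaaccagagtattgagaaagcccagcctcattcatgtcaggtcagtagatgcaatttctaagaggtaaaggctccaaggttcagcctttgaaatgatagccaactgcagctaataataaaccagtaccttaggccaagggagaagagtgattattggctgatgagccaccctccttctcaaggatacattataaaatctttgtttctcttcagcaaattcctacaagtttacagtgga

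**Figure D5:**
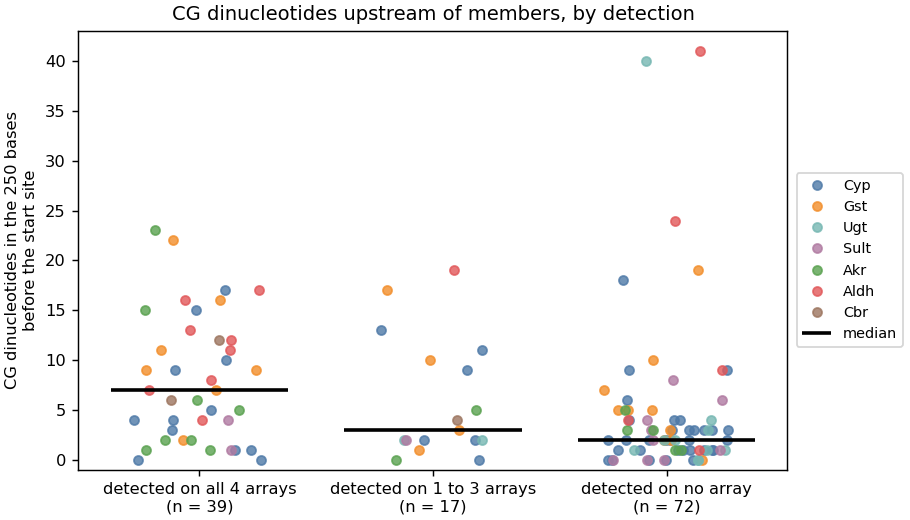
Number of CG dinucleotides in the 250 bases before the start site (y axis) for the 128 members with a promoter sequence, by the number of arrays on which the gene was detected, coloured by family, with black lines at the medians of 7, 3 and 2. Values above 15 occur in all 3 groups, and most undetected members lie at 5 or less.

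The antioxidant response letters TGACNNNGC, searched on both strands, occurred in 12 of the 128 windows, among them 5 of 39 detected members (Gstp1, Gstz1, Aldh16a1, Cyp2s1 and Cyp4b1) and 6 of 72 undetected ones. These shares of 12.8% and 8.33% compare with 12.7% of the named genes detected on all arrays and 9.34% of those detected on none, and with 11.3% of all named genes. Of 13 members listed as NRF2 targets in rodents, 6 were detected on all arrays, namely Gsta1, Gsta4, Gstp1, Akr1b8, Cbr1 and Cbr3, and 6 were on none. This share of 46.2% is close to the 50.8% of all named genes. A match of letters is no evidence of binding.

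Genes that work beside the members in the pathway were counted in the same way, with 50.8% of all named genes as the background. Of 28 other phase I enzymes 15 were detected on all arrays (53.6%), close to that share, with Por, the electron donor of microsomal P450 enzymes, at 3.26 ± 0.13 and its partner Cyb5a at 6.12 ± 0.062 (SD, n = 4 for both). Other conjugating enzymes and the enzymes that supply their cofactors gave 14 of 19 (73.7%). The membrane-bound glutathione transferases Mgst1, Mgst2 and Mgst3 had means of 4.51 ± 0.065, 5.86 ± 0.094 and 3.84 ± 0.13 (SD, n = 4 for all), and Ugdh, which makes the cosubstrate of the Ugt enzymes, one of 0.55 ± 0.17 (SD, n = 4). Gclc, the catalytic subunit of glutathione synthesis, had a mean of 3.86 ± 0.19 (SD, n = 4), and its partner Gclm was detected on no array.

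Transporters gave 8 of 24 (33.3%), below the 50.8% of all named genes, among them the ABC exporters Abcc1 at 3.85 ± 0.10, Abcc4 at 2.15 ± 0.13 and Abcc5 at 5.67 ± 0.087 (SD, n = 4 for all), while Abcb1a, Abcb1b and Abcg2 were on no array. Among regulators 10 of 19 (52.6%) were detected on all arrays, close to the same background. Nfe2l2, the gene of NRF2, had a mean of 5.22 ± 0.12 and its inhibitor Keap1 one of 0.77 ± 0.045 (SD, n = 4 for both). Nr1i2, the gene of PXR, was detected on 3 arrays and Nr1i3, that of CAR, on none. Hnf4a and Cebpa, which drive the liver programme, were detected on 3 arrays and on 1.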

How the data were processed

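Total RNA of 4 cultures was measured on 1-colour Agilent rat arrays. The authors deposited linear spot intensities, and the submitters' processing notes name Agilent Feature Extraction 11.0.1.1. The processed signal has its background removed and no normalization between arrays, per the file headers, which also show that all 4 arrays come from 1 slide and 1 scan, and the grid was built on rn4. No batch test was possible within a single slide, and the number of arrays limits the precision.

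Spots flagged as non-uniform or population outliers were left out. The log2 processed signals of the 58717 non-control spots were averaged to 45598 probes, and each array's 75th percentile, an intensity of 83.8 to 127, was subtracted. Accessions without version matched the RefSeq table of GRCr8 for 21109 probes. A gene's level is that of its probe with the highest mean among those measured on all 4 arrays (1 member, Cyp24a1, had none). No group comparison was possible, so no test was run. The members, gene lists and rules were chosen with earlier results of these data known. All members detected on every array are named with values, those detected on some arrays are named with their number of arrays, and those detected on none are counted, with well known ones named. Members with means of 0 or more and the 10 with the largest SD have the value on each array. No protein sequences were used here. Bright regions are blocks of 16 rows and 8 columns in which more than 10% of the spots of unnamed probes lay at least 1 log2 unit above every other array. The levels and the marking of bright regions were tested on simulated data, and the other steps were not. Promoters came from the first listed start of a gene, and pairs were aligned globally with Biopython 1.88. Normalization alternatives used limma 3.58.1 (R 4.3.3), and all else ran in Python 3.11.15 (pandas 2.3.3, numpy 2.4.6, matplotlib 3.10.9).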

Additional observations from a re-analysis of the deposited data

Results flagged for a closer look

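Among the 67 members detected on at least one array, 4 had one array far from the other 3, with a gap above Dixon's critical value for 4 samples. Chance flags about 1 in 20 groups that were not chosen by their values. Ugt2b35, Ugt2b and Gsta4l1 were among the 67 only through their detection on replicate 4, the array flagged for each. That rate therefore does not hold here. None of the 4 was detected on all arrays. Ugt2b35 read 0.37 on replicate 4, against -5.48 to -5.24 on the other arrays. Its only spot for that probe lies in a region of replicate 4 marked as bright, and the 76 spots around it differed from the other arrays by a median of 0.56, and its second probe was detected on no array. Ugt2b read -1.13 on replicate 4, against -4.93 to -4.80 elsewhere, and Gsta4l1 read -2.90 there, against -4.99 to -4.64. Both rest on 1 spot outside the bright regions, and the other probes of Ugt2b were detected on no array. Akr7a3 read -3.01 on replicate 3, against -2.0 to -1.80 on the other arrays, also from 1 spot outside such regions.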

How the results depend on the processing

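The count of members detected on all arrays was 45, and 45 to 48 without one replicate each. It was 51 when 3 arrays were enough, 40 when every probe of a gene had to be detected, 45 with flagged spots kept and 44 with bright regions left out, since Aldh1l2 then had no spot. With the scanner software's less strict flag it was 69 (45.1% of members, against 61.7% of named genes), including 25 Cyp, 2 Ugt and 4 Sult members. The calls of Cyp27b1, Cyp2c7, Cyp4a8, Cyp4b1 and Gstt2 did not hold when every probe was required. The median SD of detected members was 0.162 to 0.187 without one replicate each. It was 0.404 with the array median, which lies near background (0.39 for all detected genes), and 0.337 over all measured members, against 0.251 over all measured genes. It lay between 0.151 and 0.192 under quantile normalization, the percentile over detected probes, flagged spots kept, the mean of all probes, bright regions left out, and normexp, which was chosen after seeing the data and run on median signals because the files used here hold no mean signals. The array median raised every level by 3.57, and the percentile over detected probes lowered it by 3.41. Normexp moved levels by -0.93 to 1.23, and the mean of all probes shifted 12 genes by more than their SD, the largest shift being -6.82 for Cyp4a8. No paired analysis was possible because there is only 1 group of samples.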
